A study of Mus musculus with 6 samples.

Results

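Subcutaneous G422 tumours were profiled by RNA sequencing, and 37 genes of the extracellular matrix and of fibroblasts were followed through them. The genes were taken by name: each row of the deposited count matrix whose mouse gene identifier carries one of the 37 symbols. The symbols themselves were chosen with earlier results of these data known. All 37 were matched among 54532 gene identifiers, and 32 of them were among the 15203 genes with enough reads to test. They comprise 10 genes for fibronectin and matricellular proteins, 8 for proteoglycans, 14 for elastic fibre and microfibril proteins, and 5 further fibroblast genes.

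The tumours were grown in Kunming mice from G422, a mouse glioblastoma cell line, and fall into 2 groups of 3. In the shNgb group the cells carried, by the label, a short hairpin RNA against Ngb, the gene of the oxygen-binding globin neuroglobin. In the shVec group they carried the vector. Both groups share the line, the lentiviral delivery, the subcutaneous site and the host stock, and all tumours are labelled untreated. The design text calls the tumours of a group independent. The sources used here do not give the age or sex of the mice, whether the cells were 1 clone or a pool, or whether each tumour came from its own mouse. The p-values therefore cover only how these 6 tumours vary. The study's design text names Ngb itself, not a hairpin, as what was introduced, while its title speaks of a knockdown. The group names below are those of the labels. The labels also give the cell line of each tumour under a different running number.

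Libraries held 21018697 to 25620667 reads in shNgb tumours and 19630319 to 22427004 reads in shVec tumours. Ngb had 18, 19 and 11 reads in the shNgb tumours, against 28, 23 and 13 in the shVec tumours, so the groups overlapped (log2 fold change -0.59, SE 0.42). Of 8 markers of glia and neural progenitors, Nes stood at 414 ± 28.7 CPM in shNgb tumours and 506 ± 35.3 CPM in shVec tumours, and Sox2 at 17.3 ± 4.68 CPM in shNgb and 18.6 ± 2.29 CPM in shVec tumours (SD, n = 3 each; CPM is the read count scaled to a common library size). Nes, an intermediate filament gene of neural progenitors, was lower in every shNgb tumour than in any shVec tumour (log2 fold change -0.29, SE 0.08; edgeR adjusted p = 0.9997). Among all tested genes 3.43% were separated downward. Gfap stayed at 0.289 CPM or less in every tumour, and Olig2 and Aqp4 had no read in any, so these defining markers of astrocytes and oligodendrocyte lineage cells were absent or nearly so.

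The extracellular matrix of connective tissue is built on collagen fibres, which glycoproteins and proteoglycans space, link to cells and load with growth factors. Fibronectin and the matricellular proteins sit at the contact between cells and fibres. Small leucine-rich proteoglycans bind collagen, versican binds hyaluronan, and fibrillin microfibrils carry elastin and store latent TGF-beta through its binding proteins. Fibroblasts make most of this matrix, while in gliomas tenascin-C, versican and fibronectin are also made by tumour cells. The reads of a whole tumour mix tumour cells with host stroma, and fewer cells of a type cannot be told apart from less RNA per cell.

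Most of the signal of these genes came from a few glycoproteins. Levels of different genes are compared here in FPKM, the authors' deposited values per length of gene. By the mean over the 6 tumours, 11 members stood over 10 FPKM, 13 between 1 and 10 FPKM and 13 under 1 FPKM. Fn1, which encodes fibronectin, led with 170 ± 64.8 FPKM in shNgb tumours and 228 ± 45.7 FPKM in shVec tumours. Fn1 alone took 47.1% to 58.0% of the members' reads in shNgb tumours and 53.4% to 62.5% in shVec tumours. After it came Tnc, the gene of tenascin-C, a glycoprotein that loosens cell adhesion, at 47.5 ± 24.1 FPKM in shNgb and 64.7 ± 6.74 FPKM in shVec tumours. Sparc, a collagen-binding matricellular protein, stood at 60.4 ± 14.03 FPKM in shNgb and 49.3 ± 5.51 FPKM in shVec tumours, and both genes overlapped between groups. Cthrc1, a secreted protein of matrix-producing fibroblasts, stood at 37.3 ± 2.10 FPKM in shNgb and 34.4 ± 5.62 FPKM in shVec tumours. By contrast, the 5 further fibroblast genes were all low. Fap, of activated fibroblasts, stood at 1.19 ± 0.547 FPKM in shNgb and 0.849 ± 0.396 FPKM in shVec tumours. S100a4 stood at 1.78 ± 0.621 FPKM in shNgb and 1.59 ± 0.278 FPKM in shVec tumours. Pdpn stood at 0.298 ± 0.245 FPKM in shNgb and 0.291 ± 0.109 FPKM in shVec tumours. The resting fibroblast markers Pi16 and Dpt were scarce as well. Pi16, a marker of adventitial fibroblasts, stood at 0.0426 ± 0.0122 FPKM in shNgb and 0.0400 ± 0.0239 FPKM in shVec tumours, and Dpt, which encodes dermatopontin, at 0.238 ± 0.374 FPKM in shNgb and 0.0766 ± 0.111 FPKM in shVec tumours (SD, n = 3 throughout).

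**Figure D1:**
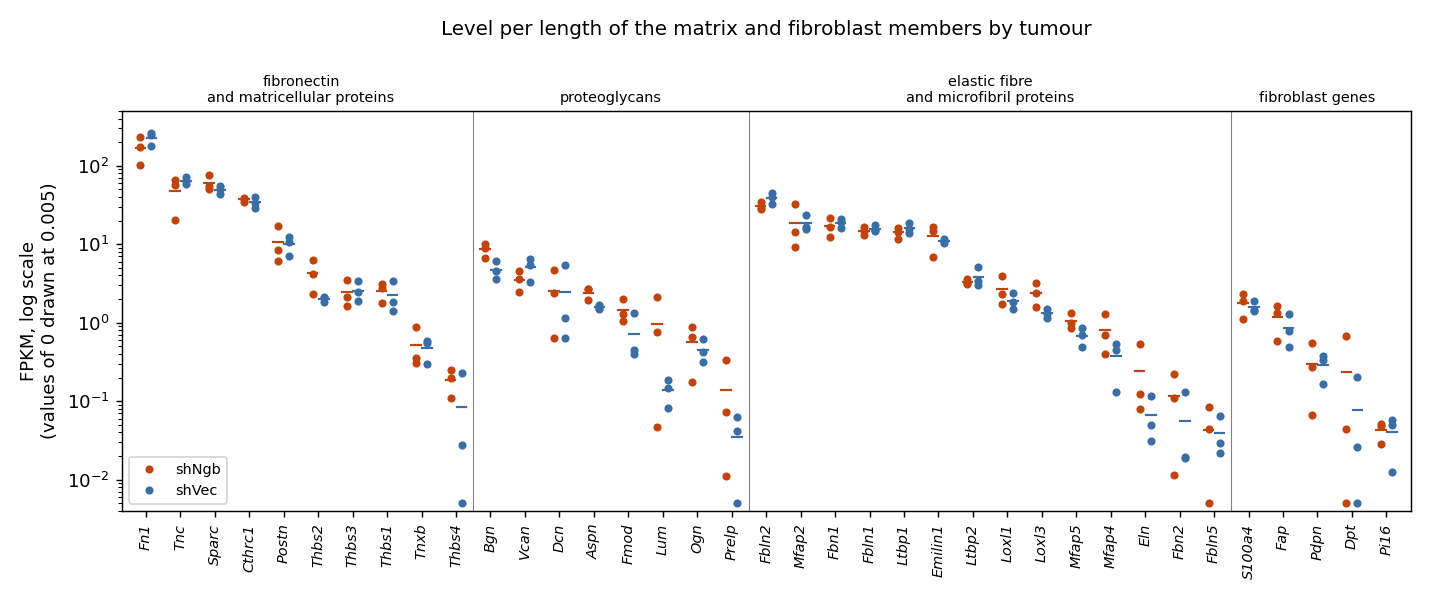
FPKM on a log axis for each of the 37 members, grouped by role and ordered by level within a role, with shNgb tumours left of shVec tumours. Points are single tumours, lines are means of 3, and values of 0 are drawn at 0.005. Fn1 stands above all other members, and Pi16, Fbln5 and Dpt lie near the bottom.

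No member separated the groups past the threshold. In edgeR's quasi-likelihood test, 0 of the 32 tested members had an adjusted p under 0.05 (0.0% of all 15203 genes), and each had an edgeR adjusted p of 0.9997. DESeq2 called 0 of 37 (0.018% of 27832 genes), limma-voom 0 of 32 (0.0% of 15203), and edgeR with the replicate number as a block 0 of 32 (0.00658% of 15203). An unadjusted p under 0.05 was reached by 5 members in edgeR, 4 higher and 1 lower in shNgb tumours, where 2.58% of all genes reached it (1.35% higher and 1.22% lower). DESeq2 gave 9 such members of 37, 7 of them higher, where 477 of 27832 genes reached that p. Lum, which the main edgeR test left out for few reads, is among those 7. Limma-voom gave 6 of 32, 5 of them higher, where 410 of 15203 genes did. Of the 32, 23 had a positive log2 fold change and 9 a negative one, with a median of 0.19, while 50.9% of all genes were positive and their median was 0.0026. In 5 members, 15.6% of those tested, every shNgb tumour stood above every shVec tumour, and in 0 every shNgb tumour stood below. Among all genes 7.1% were separated, 3.67% upward and 3.43% downward. The members that passed the read filter are not all 37, and no count over them was tested against other genes. The members were also chosen with earlier results of these data known, so their shares are not independent of these data.

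**Figure D2:**
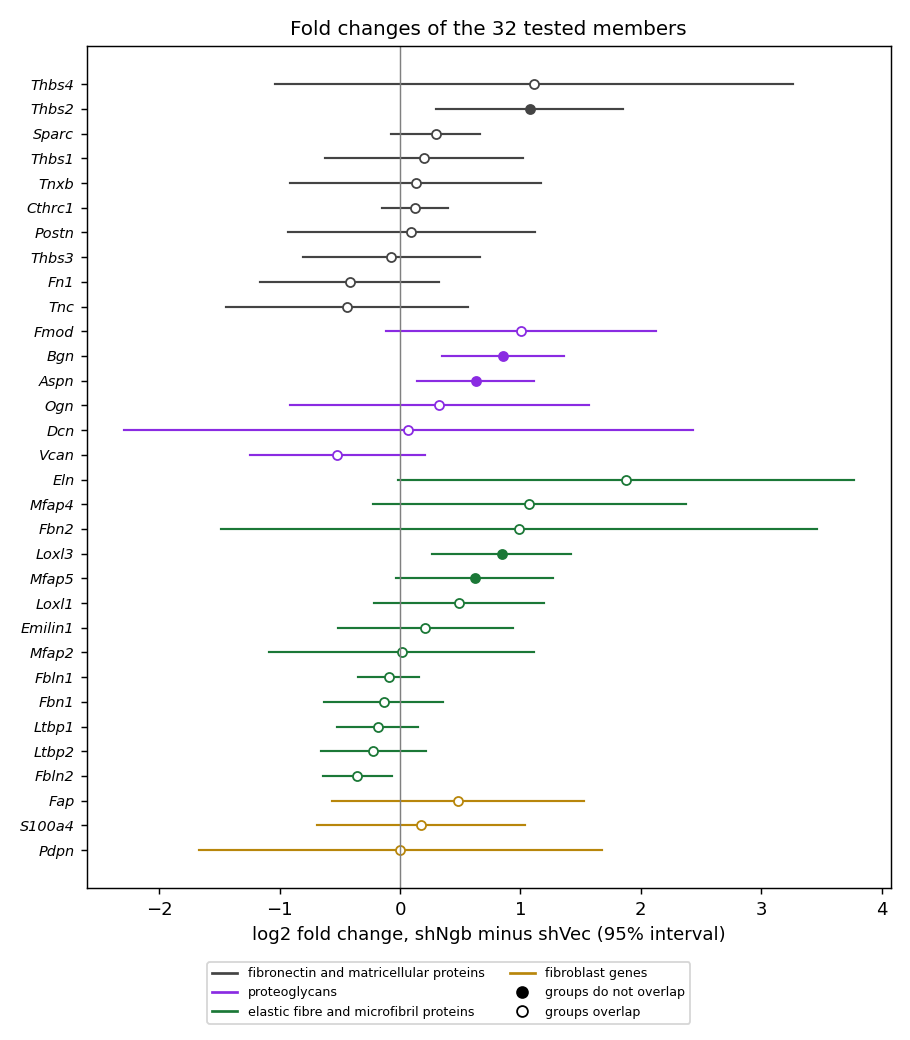
Log2 fold change of each of the 32 tested members, shNgb minus shVec, with its 95% confidence interval from edgeR and coloured by role. Filled points mark the 5 members whose groups do not overlap, all higher in shNgb tumours: Thbs2, Bgn, Aspn, Loxl3 and Mfap5.

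Among the 10 genes for fibronectin and matricellular proteins, Thbs2 was the one whose groups did not overlap. Thbs2 encodes thrombospondin 2, a secreted trimer known to restrain angiogenesis and to bind matrix metalloproteinases. It had 44.4, 16.6 and 29.5 CPM in the shNgb tumours, against 14.7, 15.1 and 12.9 CPM in the shVec tumours. The shVec values lay close together, the first shNgb tumour was highest, and the second lay just above the shVec range. Thbs2 had a log2 fold change of 1.08 with an SE of 0.33 (95% interval from 0.30 to 1.86; edgeR unadjusted p = 0.0134, adjusted p = 0.9997). Leaving out single tumours gave 0.69 to 1.37, the lowest when shNgb replicate 1 was omitted.

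The abundant members of this role did not separate the groups. Fn1 had 2063, 2736 and 1205 CPM in shNgb tumours and 3083, 2071 and 2874 CPM in shVec tumours. The third shNgb tumour was lowest, the first lay just under the shVec range and the second within it. The log2 fold change of Fn1 was -0.42 (SE 0.31; edgeR adjusted p = 0.9997), and leaving out shNgb replicate 3 gave -0.16. Tnc had 444, 516 and 158 CPM in shNgb tumours, against 453, 504 and 559 CPM in shVec tumours. The third shNgb tumour was far below the other 5, among which the groups overlapped. For Tnc the log2 fold change was -0.44 (SE 0.41; edgeR adjusted p = 0.9997), and -0.08 once shNgb replicate 3 was left out. Sparc had 290.1, 211 and 191 CPM in shNgb tumours and 207, 190.1 and 166 CPM in shVec tumours. The first and second shNgb tumours were above every shVec tumour, the third lay within the shVec range, and the log2 fold change was 0.30 (SE 0.16; edgeR unadjusted p = 0.104). Cthrc1 had 60.4, 56.5 and 63.0 CPM in shNgb tumours and 64.4, 54.0 and 46.6 CPM in shVec tumours, a log2 fold change of 0.12 (SE 0.12).

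The remaining members of this role overlapped between groups. Postn, the gene of periostin, which promotes collagen cross-linking, had 53.2 to 153 CPM in shNgb and 61.6 to 108 CPM in shVec tumours. The other thrombospondin genes also overlapped. Thbs1, an activator of latent TGF-beta, stood at 15.6 ± 4.25 CPM in shNgb and 13.6 ± 6.47 CPM in shVec tumours, and Thbs3, a pentameric member, at 11.8 ± 4.78 CPM in shNgb and 12.4 ± 3.67 CPM in shVec tumours (SD, n = 3 each). Thbs3 shares 6.59% of its exon bases with Mtx1 on the other strand, and the library kit named in the labels does not mark strand. Mtx1 stood higher than Thbs3, at 30.1 ± 3.16 CPM in shNgb and 28.6 ± 2.41 CPM in shVec tumours. Thbs4, also pentameric, had 17, 9 and 17 reads in shNgb tumours and 2, 15 and 0 reads in shVec tumours, a log2 fold change of 1.11 (SE 0.935). Tnxb, the gene of tenascin-X, which organises dermal collagen, had 3.71 to 10.96 CPM in shNgb and 3.69 to 7.13 CPM in shVec tumours.

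**Figure D3:**
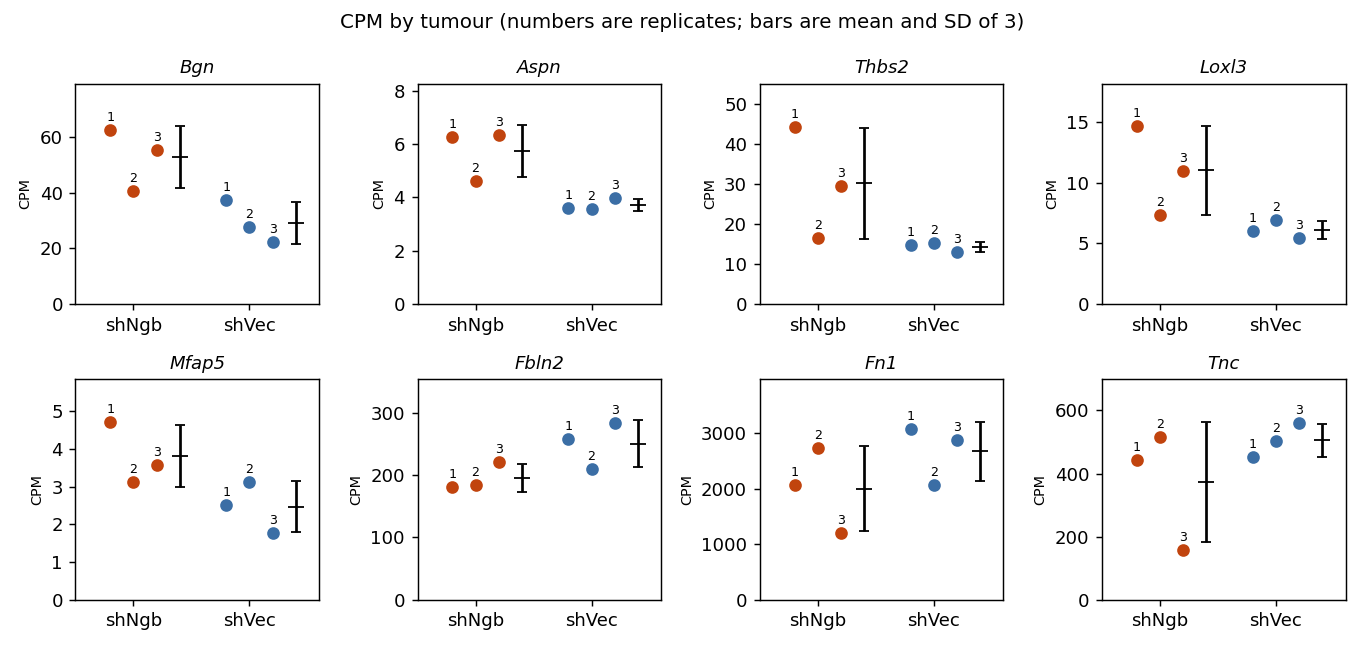
CPM in each tumour for 8 members, on axes that start at 0, with shNgb left of shVec. Numbers beside points are replicates, which have no order, and black bars give mean and SD of 3 tumours. Bgn, Aspn, Thbs2, Loxl3 and Mfap5 are separated, while Fbln2, Fn1 and Tnc overlap and the third shNgb tumour is lowest in Fn1 and Tnc.

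The proteoglycan genes held the member with the smallest p, Bgn. Bgn encodes biglycan, a small leucine-rich proteoglycan that binds type I collagen and, when released, Toll-like receptors. It had 62.5, 40.8 and 55.3 CPM in shNgb tumours, against 37.5, 27.6 and 22.4 CPM in shVec tumours. Every shNgb value lay above every shVec value, although the lowest shNgb and the highest shVec tumour lay close together. Bgn had a log2 fold change of 0.86 with an SE of 0.22 (95% interval from 0.35 to 1.37; edgeR unadjusted p = 0.00507, adjusted p = 0.9997), and it ranged from 0.70 to 1.08 when single tumours were left out. In DESeq2 its adjusted p was 0.119.

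Aspn was the other proteoglycan family gene whose groups did not overlap. Aspn encodes asporin, which resembles biglycan and decorin, binds collagen and inhibits TGF-beta. It had 6.27, 4.61 and 6.36 CPM in shNgb tumours and 3.60, 3.58 and 3.97 CPM in shVec tumours. All 3 shVec values lay within a narrow band below the shNgb values. The difference for Aspn came to 0.63 on the log2 scale with an SE of 0.22 (95% interval from 0.14 to 1.12; edgeR unadjusted p = 0.0174, adjusted p = 0.9997), and to 0.54 to 0.77 with single tumours left out. Aspn lies inside the gene body of Cenpp on the other strand and shares 7 exon bases with it. Cenpp, a centromere protein gene, stood at 7.21 ± 0.946 CPM in shNgb and 7.43 ± 0.279 CPM in shVec tumours (SD, n = 3 each).

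The other proteoglycans varied more from tumour to tumour. Fmod, the gene of fibromodulin, which guides collagen fibril growth, had 4.34, 6.79 and 3.53 CPM in shNgb and 4.42, 1.51 and 1.32 CPM in shVec tumours. One shVec tumour reached the shNgb range, and the log2 fold change was 1.004 (SE 0.49; edgeR unadjusted p = 0.0725). Leaving out that tumour, shVec replicate 1, gave 1.78. It alone made the groups overlap, so their separation without it followed from the omission, where 17.5% of all genes were separated. Dcn, the gene of decorin, the best known collagen-binding proteoglycan of fibroblasts, had 27.2, 14.2 and 3.79 CPM in shNgb and 6.79, 32.4 and 3.77 CPM in shVec tumours. Its highest and lowest tumours both belonged to the shVec group, with a ratio of 8.59 between them, and its log2 fold change was 0.07 (SE 0.97). Leaving out shNgb replicate 1 gave -0.67, and leaving out shVec replicate 2 gave 1.503. Lum, the gene of lumican, had too few reads for the main edgeR test. It had 107, 46 and 3 reads in shNgb and 8, 9 and 4 reads in shVec tumours, so that the reads came mainly from shNgb replicates 1 and 2. DESeq2, which kept Lum, gave a log2 fold change of 2.80 (DESeq2 unadjusted p = 0.00129, adjusted p = 0.895).

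Vcan, the gene of versican, a large hyaluronan-binding proteoglycan, had 52.4, 66.0 and 36.0 CPM in shNgb and 93.3, 47.8 and 80.2 CPM in shVec tumours. The third shNgb tumour was again lowest, 1 shVec tumour lay within the shNgb range, and the log2 fold change was -0.52 (SE 0.30; edgeR unadjusted p = 0.134). Ogn, the gene of osteoglycin, had 12 to 55 reads in shNgb and 18 to 31 reads in shVec tumours. Prelp, a leucine-rich protein that anchors basement membranes, had 25, 1 and 7 reads in shNgb and 5, 3 and 0 reads in shVec tumours and was not in the main edgeR test.

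Several of these genes are neighbours in the genome. In the annotation used here (GENCODE M21, build GRCm38), Aspn lies on chromosome 13 from 49544443 to 49567565 and Ogn from 49608046 to 49624501, both on the plus strand and 40.5 kb apart. The groups were separated in Aspn and overlapped in Ogn. Dcn (97479609 to 97518143) and Lum (97565128 to 97572703) lie 47.0 kb apart on the plus strand of chromosome 10. Epyc, a cartilage member of the same cluster, had 1 read in the 6 tumours together. Bgn lies on chromosome X from 73483602 to 73495933 on the plus strand, apart from the other members.

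The 200 bases before the RefSeq start sites of Bgn, Thbs2 and Aspn are shown because these are the separated members with an entry in the RefSeq promoter table (build GRCm38.p6), which held 25 of the 37. They are given 5′ to 3′ on the strand of the gene. Capitals mark a match on either strand to the TATA box (TATAAA), the GC box (GGGCGG), the AP-1 site (TGANTCA) or the Smad-binding CAGA element (CAGACA), and neighbouring GC box matches can overlap.
Bgn (chrX:73483401-73483600, plus strand): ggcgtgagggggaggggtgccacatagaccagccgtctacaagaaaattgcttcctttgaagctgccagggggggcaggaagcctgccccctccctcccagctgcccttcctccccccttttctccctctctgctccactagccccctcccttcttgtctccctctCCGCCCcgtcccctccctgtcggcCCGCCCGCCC
Thbs2 (chr17:14694263-14694462, minus strand): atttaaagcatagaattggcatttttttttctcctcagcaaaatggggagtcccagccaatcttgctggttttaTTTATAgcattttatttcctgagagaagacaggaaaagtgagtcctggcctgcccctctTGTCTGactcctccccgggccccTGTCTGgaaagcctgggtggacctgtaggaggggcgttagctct
Aspn (chr13:49544243-49544442, plus strand): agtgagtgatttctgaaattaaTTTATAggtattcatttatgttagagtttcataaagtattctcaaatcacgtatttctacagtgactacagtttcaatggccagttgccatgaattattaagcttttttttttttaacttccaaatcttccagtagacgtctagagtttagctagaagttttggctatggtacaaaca

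These 3 windows did not look alike. The window of Bgn was 67.0% G and C with GC box matches close to the start, that of Thbs2 48.5% with CAGA element and TATA box matches, and that of Aspn 31.0% with 1 TATA box match. Over the members with an entry, the GC box was found in 11 of 25, the TATA box in 5, the CAGA element in 7 and the AP-1 site in 1. Among all 27025 genes of the table the shares were 33.7%, 11.7%, 15.6% and 6.36%. A match describes letters and not binding.

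Of the 14 genes for elastic fibre and microfibril proteins, Loxl3 and Mfap5 were separated. Loxl3 encodes a lysyl oxidase-like enzyme that cross-links collagen and elastin. It had 14.7, 7.36 and 10.96 CPM in shNgb tumours, against 6.01, 6.90 and 5.40 CPM in shVec tumours. The second shNgb tumour lay just above the shVec range and the others well above it. For Loxl3 the log2 fold change was 0.85 with an SE of 0.25 (95% interval from 0.27 to 1.42; edgeR unadjusted p = 0.00905, adjusted p = 0.9997), and 0.58 when shNgb replicate 1 was left out. Loxl3 shares 11.6% of its exon bases with Htra2, a mitochondrial protease gene on the other strand, which stood at 72.0 ± 13.1 CPM in shNgb and 70.6 ± 1.84 CPM in shVec tumours. The part of those shared bases in the count of Loxl3 was not tested.

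Mfap5, which encodes a small glycoprotein of microfibrils, had 4.73, 3.13 and 3.56 CPM in shNgb and 2.51, 3.12 and 1.78 CPM in shVec tumours. The lowest shNgb value and the highest shVec value were almost equal, and with RLE scaling the groups overlapped. The log2 fold change of Mfap5 was 0.62 (SE 0.29; edgeR unadjusted p = 0.0609). Mfap4, an elastin-binding glycoprotein, had 52, 19 and 35 reads in shNgb and 23, 17 and 5 reads in shVec tumours, a log2 fold change of 1.08 (SE 0.57; edgeR unadjusted p = 0.0945). One shNgb tumour lay within the shVec range of Mfap4, which shares 4.63% of its exon bases with Mapk7 on the other strand. Mapk7 stood at 41.5 ± 3.22 CPM in shNgb and 38.0 ± 1.98 CPM in shVec tumours, against 1.54 ± 0.880 CPM and 0.720 ± 0.414 CPM for Mfap4. The part of the shared bases in the count of Mfap4 was not tested. Eln, the gene of elastin, had 21, 16 and 113 reads in shNgb and 21, 5 and 8 reads in shVec tumours. One shNgb tumour held most of these reads, and the log2 fold change of 1.88 (SE 0.81; edgeR unadjusted p = 0.0516) was 0.60 when shNgb replicate 3 was left out and 2.59 when shVec replicate 1 was.

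Fbln2 was the 1 member lower in shNgb tumours at an unadjusted p under 0.05 in edgeR, while DESeq2 gave Fbln2 and Vcan. Fbln2 encodes fibulin 2, a bridge between fibronectin, proteoglycans and microfibrils. It had 181, 185 and 222 CPM in shNgb tumours, against 259, 209.5 and 285 CPM in shVec tumours. The third shNgb tumour lay above the second shVec tumour, so the groups overlapped. Fbln2 had a log2 fold change of -0.36 with an SE of 0.13 (95% interval from -0.64 to -0.07; edgeR unadjusted p = 0.0203, adjusted p = 0.9997), and -0.47 to -0.26 with single tumours left out.

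The core microfibril genes were abundant and overlapped between groups. Fbn1, the gene of fibrillin 1, stood at 207 ± 59.6 CPM in shNgb and 227 ± 29.2 CPM in shVec tumours, and Ltbp1, which tethers latent TGF-beta to the matrix, at 149.7 ± 24.2 CPM in shNgb and 170.1 ± 26.8 CPM in shVec tumours (SD, n = 3 each). Fbn1 shares 20.1% of its exon bases with Gm9913 on the other strand, which stood far lower, at 0.500 ± 0.0985 CPM in shNgb and 0.618 ± 0.0506 CPM in shVec tumours. Fbln1, the gene of fibulin 1, stood at 65.1 ± 7.94 CPM in shNgb and 69.4 ± 6.53 CPM in shVec tumours. Emilin1, an elastic fibre glycoprotein that restrains TGF-beta processing, had 72.0, 82.6 and 34.5 CPM in shNgb and 53.8, 58.2 and 51.5 CPM in shVec tumours, so the shNgb values lay on both sides of the shVec range. Mfap2, a microfibril glycoprotein, spread likewise, with 17.4, 39.6 and 11.3 CPM in shNgb and 28.7, 18.9 and 20.1 CPM in shVec tumours. Ltbp2, a fibrillin-binding protein of the Ltbp1 family, and Loxl1, which cross-links elastin, had log2 fold changes of -0.22 (SE 0.19) and 0.49 (SE 0.31). Fbn2, the gene of the developmental fibrillin 2, had 49, 3 and 30 reads in shNgb and 30, 4 and 4 reads in shVec tumours. Fbln5, a fibulin needed for elastic fibre assembly, had 0 to 12 reads in shNgb and 3 to 10 reads in shVec tumours and was not in the main edgeR test.

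The 5 further fibroblast genes were low and overlapped between groups. Fap, the gene of fibroblast activation protein, a surface protease of activated fibroblasts, had 7.52, 9.46 and 3.33 CPM in shNgb and 7.24, 4.43 and 2.80 CPM in shVec tumours. The log2 fold change of Fap was 0.48 (SE 0.45). S100a4, a calcium-binding protein of motile cells also called fibroblast-specific protein, had 23, 16 and 36 reads in shNgb and 18, 17 and 22 reads in shVec tumours, and 51.7% of its exon bases also belong to Gm42674 on the same strand. Pdpn, the gene of podoplanin, a mucin-type membrane protein, had 21, 3 and 13 reads in shNgb and 15, 12 and 6 reads in shVec tumours. Dpt had 24, 0 and 2 reads in shNgb and 1, 7 and 0 reads in shVec tumours, and Pi16 had 4, 5 and 3 reads in shNgb and 5, 4 and 1 reads in shVec tumours. Neither was tested.

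The members varied widely between tumours of the same group. Over the 18 members above 10 CPM, the median coefficient of variation was 29.0% in shNgb tumours and 18.1% in shVec tumours, while over all 9475 tested genes above 10 CPM it was 8.24% and 7.71%. The third shNgb tumour was the lowest of the 6 in 8 of the 18 members above 10 CPM, where 24.7% of all genes above 10 CPM had their lowest value there. It was the highest in 0 of those 18 and in 19.7% of all such genes. The first shNgb tumour was the highest in 3 of the 18 (16.7%) and in 13.5% of such genes. Over all 32 tested members, the first shNgb tumour was the highest in 10 (31.2%, against 12.9% of all tested genes). Among these 32 the third shNgb tumour was the lowest in 9 (28.1%, against 20.9%) and the third shVec tumour in 11 (34.4%, against 15.5%). The members took 0.385%, 0.479% and 0.261% of the reads in shNgb tumours and 0.483%, 0.384% and 0.480% in shVec tumours, with the lowest share in the third shNgb tumour. Fn1 leads that share. Over the 32 tested members, log2 CPM minus the mean of the 6 tumours had medians of 0.31, 0.04 and 0.10 in shNgb tumours. In shVec tumours the medians were 0.07, -0.11 and -0.23, so the third shNgb tumour was not low by this measure.

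**Figure D4:**
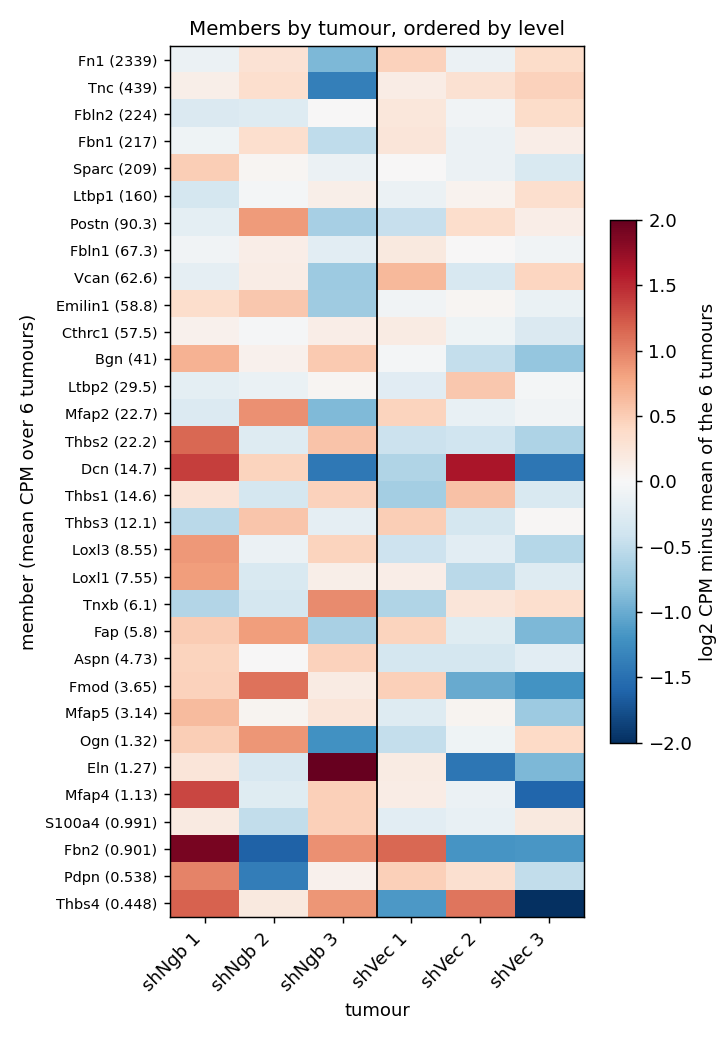
Log2 CPM of the 32 tested members in each tumour, minus the mean of the 6 tumours, with members ordered from the most to the least abundant and shNgb tumours left of the line. The third shNgb tumour is low in Fn1, Tnc, Vcan, Emilin1 and Mfap2, and the first is high in Thbs2, Bgn, Loxl3 and Dcn.

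Related genes from lists named by pathway gave no edgeR call either, 0 in each of 5 lists. At an edgeR unadjusted p under 0.05 these lists held 3, 1, 1, 1 and 1 genes, in the order given here. Among all tested genes 2.58% reached that p, 1.35% higher and 1.22% lower in shNgb tumours. Of 11 tested collagen genes, 3 had an unadjusted p under 0.05, all higher in shNgb tumours: Col1a1, Col1a2 and Col5a2. Col1a1 and Col1a2 encode the chains of type I collagen, the fibre to which biglycan and asporin bind. Col1a1 had 354, 209.7 and 281 CPM in shNgb tumours, against 197, 139 and 130.1 CPM in shVec tumours, a log2 fold change of 0.86 (SE 0.23). Col1a1 was the 1 of the 11 whose groups did not overlap, where 3.67% of all tested genes were separated upward. It is the 1 gene of these lists that DESeq2 called (adjusted p = 0.0443). Col1a2 had 241, 114 and 174 CPM in shNgb and 119, 73.1 and 79.4 CPM in shVec tumours, and the second shNgb tumour lay within the shVec range. Col5a2, a chain of type V collagen, which nucleates type I fibrils, had a log2 fold change of 0.83 (SE 0.30). In Bgn, Thbs2, Loxl3, Col1a1, Col1a2 and Col5a2 alike, the first shNgb tumour was highest and the second was lowest within its group. Of the other separated members, Mfap5 had this order too, while Aspn was highest in the third shNgb tumour. Col3a1, by contrast, had 1666, 1514 and 605 CPM in shNgb and 1582, 1345 and 1476 CPM in shVec tumours, with the third shNgb tumour lowest as in Fn1 and Tnc. Col3a1 and the genes with the shared order are named here because of their values.

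Fewer genes of the other lists reached that p. Of 21 tested matrix glycoproteins and cross-linking enzymes outside the members, 1 had an unadjusted p under 0.05, Spon1, the gene of the matrix protein spondin 1, with 11.7, 10.6 and 17.4 CPM in shNgb and 9.16, 7.86 and 7.38 CPM in shVec tumours. The list's median log2 fold change was 0.04. Ltbp3 and Smoc2, its next genes by p, had log2 fold changes of -0.20 (SE 0.09) and 1.05 (SE 0.54). Of 16 tested proteoglycans outside the members, 12 were negative, with a median of -0.12, while 50.9% of all tested genes were positive. Sdc4, the gene of syndecan 4, a cell surface heparan sulfate proteoglycan, had 75.3, 71.8 and 69.5 CPM in shNgb and 82.8, 102 and 83.2 CPM in shVec tumours, a log2 fold change of -0.31 (SE 0.10; edgeR unadjusted p = 0.0129), and its groups did not overlap. Sdc2 and Hspg2, the gene of perlecan, had log2 fold changes of -0.20 (SE 0.09) and -0.21 (SE 0.11), with every shNgb tumour below every shVec tumour in Sdc2 and an overlap in Hspg2. Sdc4 and Sdc2 were the 2 of 16 so separated, where 3.43% of all tested genes were separated downward.

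Enzymes that build chondroitin and dermatan sulfate chains had a median of -0.02 over 16 tested genes. The smallest p belonged to Chsy1, a chondroitin polymerising enzyme, with 158 ± 11.2 CPM in shNgb and 179 ± 7.89 CPM in shVec tumours, followed by the sulfotransferase gene Ust (log2 fold change -0.32, SE 0.15) and B3galt6, a linker galactosyltransferase (-0.17, SE 0.13). Of 8 TGF-beta ligands and early targets, 5 were negative, with a median of -0.15, while 50.9% of all tested genes were positive. Smad7, the inhibitory Smad of the pathway, stood at 59.5 ± 6.32 CPM in shNgb and 70.1 ± 1.14 CPM in shVec tumours (SD, n = 3 each). Chsy1 and Smad7, each the 1 such gene of its list, were lower in every shNgb tumour than in any shVec tumour. Among all tested genes 3.43% were separated downward. Ust, B3galt6 and Skil overlapped between groups. Skil, a Smad corepressor, had a log2 fold change of -0.23 (SE 0.12).

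Markers of cells that could contribute matrix or dilute it were read beside these values. The 10 fibroblast markers outside the members, 9 of them tested, summed to 1317 to 2568 CPM in shNgb and 1800 to 2174 CPM in shVec tumours, a sum led by Col3a1. Of these, 3 had an edgeR unadjusted p under 0.05, namely Col1a1, Col1a2 and Thy1, all higher in shNgb. Among all tested genes 2.58% reached that p. Col1a1 and Col1a2 also belong to the collagen list above. The PDGF receptor genes of fibroblasts and pericytes overlapped between groups, Pdgfra at 57.7 ± 16.8 CPM in shNgb and 43.3 ± 5.37 CPM in shVec tumours and Pdgfrb at 96.9 ± 44.9 CPM in shNgb and 96.3 ± 22.3 CPM in shVec tumours (SD, n = 3 each). The 9 endothelial markers summed to 63.4 to 83.5 CPM in shNgb and 72.3 to 78.6 CPM in shVec tumours, and the 9 pericyte and smooth muscle markers to 32.8 to 47.3 CPM in shNgb and 31.6 to 48.4 CPM in shVec tumours. Acta2, a smooth muscle marker, was higher in shNgb tumours without overlap (log2 fold change 0.37, SE 0.16; edgeR unadjusted p = 0.0498). It was the 1 of these 9 so separated, where 3.67% of all tested genes were separated upward. Of the 9 pericyte and smooth muscle markers, 6 had a negative log2 fold change. No endothelial marker had an edgeR unadjusted p under 0.05.

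Markers of immune cells and of host skin and muscle also varied between tumours. The 9 macrophage markers summed to 120.1, 205 and 262 CPM in shNgb and 99.7, 175 and 146 CPM in shVec tumours, and the 10 T and NK cell markers to 5.35, 20.4 and 41.3 CPM in shNgb and 7.06, 22.0 and 5.65 CPM in shVec tumours. Both sums were highest in the third shNgb tumour, the one lowest in Fn1 and Tnc. All 9 macrophage markers had a positive log2 fold change, with a median of 0.56. So did all 9 tested T and NK cell markers, with a median of 1.03, while 50.9% of all tested genes were positive. Fcgr1 was the 1 macrophage marker with an edgeR unadjusted p under 0.05 (0.0377), and it overlapped between groups. No T and NK cell marker reached that p. The 8 skeletal muscle markers summed to 7.04 to 8.23 CPM in shNgb and 7.88 to 23.6 CPM in shVec tumours, with the highest sum in shVec replicate 2, the tumour highest in Dcn. Adipocyte markers summed to 3.10 to 4.16 CPM in shNgb and 3.14 to 3.61 CPM in shVec tumours, with Adipoq at 0.0911 CPM or less in every tumour. Of 5 keratinocyte markers, Krt5 and Krt1 had no read in any tumour, and the list summed to 5.25 to 6.71 CPM in shNgb and 5.19 to 6.75 CPM in shVec tumours. The part of any of these cells in the values of the members was not tested.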

How the data were processed

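Per the labels' protocols, total RNA was taken with Trizol reagent and made into libraries with a TruSeq RNA kit, which does not mark strand. The submitters' processing notes list Bowtie 0.12.2 and 2 genome builds, mm8 and mm10. How reads were counted, and how multiply mapping reads were treated, is not stated there. The authors deposited raw read counts per gene and FPKM values. For the 23 members over 50 reads in all libraries, deposited FPKM and count differed by no more than 1 factor per gene and 1 per library.

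GENCODE M21 gave symbols to 54409 of 54532 identifiers, and Ctgf was found as Ccn2. Counts were tested in R 4.3.3 with edgeR 4.0.16: default expression filter, TMM scaling, robust quasi-likelihood F-test and Benjamini-Hochberg adjustment over 15203 genes, at 0.05. Standard errors are the log2 fold change divided by the root of F. Other settings were DESeq2 1.42.0, limma-voom from limma 3.58.1, RLE scaling, upper quartile scaling, no filter, a strict filter (at least 10 reads and 1 CPM in 3 libraries), a replicate block, and each tumour left out.

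The members and lists were chosen with earlier results of these data known. Full values are given for the 10 tested members of smallest p, those whose groups did not overlap and the 4 of highest FPKM. Each pathway list gives up to 3 genes of smallest p, and 1 gene that this rule names is not reported here. Groups and replicate numbers came from the sample titles.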

Additional observations from a re-analysis of the deposited data

How the results depend on the processing

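With 3 tumours a group, no setting called a member: edgeR under every scaling, filter, block and omission, DESeq2 and limma-voom each gave 0. Over all genes DESeq2 called 5, edgeR without the filter 3 and edgeR with the replicate block 1, against 0 in the main test, and DESeq2 called 1 gene of the pathway lists. The median log2 fold change of the tested members, 0.19, was 0.14 to 0.39 with single tumours left out, the highest without shNgb replicate 3. The count of members whose groups do not overlap, 5, was 4 with RLE scaling and with the strict filter, and 5 to 10 with single tumours left out, where 12.2% to 19.5% of all genes were separated. Bgn, Aspn, Thbs2 and Loxl3 stayed above in all 10 alternatives that give this count. Omitting a tumour cannot make separated groups overlap, apart from small shifts in scaling, so the omissions could not test these separations. The other alternatives rescale or filter the same counts.

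Directions reversed in the members named here. With limma-voom and with the replicate block the log2 fold changes were -0.18 and -0.16 in Mfap2, -0.35 and -0.12 in Pdpn, and -0.0104 and -0.0074 in Postn, and with RLE scaling Pdpn had -0.0015. With single tumours left out, values ranged from -0.67 to 1.503 in Dcn, -0.0365 to 0.50 in Emilin1, -0.37 to 0.0453 in Fbn1, -0.38 to 0.0390 in Ltbp2, -0.66 to 0.34 in Mfap2, -0.14 to 0.76 in Ogn, -0.76 to 0.48 in Pdpn, -0.46 to 0.37 in Postn, -0.0855 to 0.42 in S100a4, -0.0416 to 0.65 in Thbs1, -0.44 to 0.17 in Thbs3 and -0.52 to 0.40 in Tnxb. The causes were not tested. Same-numbered tumours did not consistently deviate together, with correlations across genes of 0.26, -0.14 and -0.10. Tumours of different numbers gave -0.26 to 0.33, so the replicate block pairs tumours by number only. Of the members, 5 had too few reads for the main edgeR test: Lum, Prelp, Fbln5, Dpt and Pi16. DESeq2 and edgeR without the filter included all 37.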
